A study of Mus musculus with 90 samples.

Results

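The genes for the respiratory chain and ATP synthase were followed in mouse tumour cells kept in interferon gamma (IFNγ). The members were the protein-coding genes whose symbol begins with Nduf, Sdh, Uqcr, Cox4 to Cox8 or Atp5, or with mt-Nd, mt-Co, mt-Cytb or mt-Atp, with at least 90 counts summed over the 90 samples. There were 104 of 53697 genes, and 91 of them lie in the nucleus and 13 in the mitochondrial genome. By the complex that each product belongs to, the nuclear members were 36 of complex I, 4 of complex II, 8 of complex III, 14 of complex IV, 17 of complex V (the ATP synthase) and 12 assembly factors with a matching name. A further 7 coding genes of these names had under 90 counts (Cox4i2, Cox6b2, Cox7b2, Cox8b, Cox8c, Ndufa4l2 and a second Atp5o locus).

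Cells of 2 mouse lines were used, YUMM2.1, which is melanoma from skin, and CT26, which is colorectal cancer from colon, each with 15 groups of 3 samples. Untreated cells, which received bovine serum albumin (BSA), were taken at 0, 1, 2 and 3 weeks. Cells in 50 IU/mL IFNγ were taken after 1, 2 and 3 weeks, without a rechallenge or with fresh IFNγ for 2 h or 24 h. Cells that had never met IFNγ, called naive below, received it for 2 h or 24 h at week 0. Nothing separates the 3 samples of a group beyond a description as triplicate experiments. The p-values thus measure the spread between samples within groups, pooled over all groups fitted together, and that spread may be technical. Each line is a single tumour cell line in culture, and the comparisons say nothing of other tumours or of cells in a host.

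Oxidative phosphorylation takes place in the inner membrane of the mitochondrion. Complexes I and II pass electrons from NADH and succinate to ubiquinone, complex III passes them to cytochrome c and complex IV to oxygen, and complexes I, III and IV pump protons whose return through the ATP synthase drives the making of ATP. Most subunits are encoded in the nucleus and imported, whereas the mitochondrial genome holds core subunits of complexes I, III, IV and V and none of complex II. IFNγ, a cytokine of T cells and natural killer cells, raises genes of antigen presentation and immune defence, and tumour cells can live in it for weeks.

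The library totals ran from 274719 to 3161276 counts in YUMM2.1 (median 1403265) and from 295157 to 2205285 in CT26 (median 1318011), and 1 and 2 libraries held under 25% of the line's median. The IFNγ label was checked on Irf1, Gbp2 and B2m, which were all higher by edgeR's quasi-likelihood test in each comparison of 1, 2 or 3 weeks of IFNγ with its control in both lines. Of 7 melanocyte markers 3 had more than 3 counts in untreated YUMM2.1 (Pmel, Dct and Sox10, with Tyr, Tyrp1 and Mlana at 0). Of 8 markers of colon epithelium 2 did so in untreated CT26 (Krt18 and Krt20, with Epcam, Cdh1, Krt19 and Vil1 at 0). Each line thus lacked most of the listed markers of its labelled tissue at that level. Of 5 fibroblast markers 2 passed in YUMM2.1 and 4 in CT26. Among 6 immune markers only Cd68 passed in either line, and Cd3e, Adgre1 and Itgam were at 0 in both.

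Ndufa4 was the member called in the most IFNγ comparisons, and the start of its gene is shown beside that of Uqcr11, a member that fell less and whose start holds the NRF1 motif described below. Ndufa4 lies on chromosome 6 from 11900292 to 11907497 on the minus strand (mm10), and Uqcr11 on chromosome 10 from 80402997 to 80406830, also on the minus strand. The windows run 250 bases before to 50 bases after the RefSeq start (GRCm38.p6), chr6:11907401-11907700 and chr10:80406772-80407071, 5′ to 3′ on the gene's strand, with matches to 3 motifs in capitals.
Ndufa4: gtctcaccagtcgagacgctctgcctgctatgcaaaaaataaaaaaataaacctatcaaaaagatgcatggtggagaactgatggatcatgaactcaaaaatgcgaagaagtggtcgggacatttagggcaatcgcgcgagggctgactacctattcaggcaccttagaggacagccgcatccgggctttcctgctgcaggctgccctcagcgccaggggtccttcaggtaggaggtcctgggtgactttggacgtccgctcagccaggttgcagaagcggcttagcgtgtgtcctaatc
Uqcr11: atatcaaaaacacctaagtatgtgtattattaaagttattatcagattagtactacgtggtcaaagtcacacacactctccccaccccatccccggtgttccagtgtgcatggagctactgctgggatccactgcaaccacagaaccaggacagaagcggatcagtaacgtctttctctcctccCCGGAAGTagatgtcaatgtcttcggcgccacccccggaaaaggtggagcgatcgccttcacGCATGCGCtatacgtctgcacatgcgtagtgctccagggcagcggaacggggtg

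The motifs were searched on both strands, and 77 of the 91 nuclear members had a window, out of 27025 genes. GCGCATGC, the core of the site of NRF1, a regulator of nuclear genes for mitochondria, was in 12 members (15.6%, against 3.05% of all genes with a window). AAGATGGCG, the site of YY1, was in 8 members (10.4% against 1.64%), and CCGGAAGT, the site of GABP and other ETS factors, in 5 (6.49% against 4.31%). The Ndufa4 window held none of these letters, and the Uqcr11 window held the NRF1 letters (as GCATGCGC, on the other strand) and the GABP letters. The NRF1 letters were also absent from the windows of Atp5c1, Atp5d, Atp5g1, Atp5h, Atp5j2, Ndufb11 and Uqcrh, which are reported below as lower in CT26. Whether a motif goes with the size of a change was not tested.

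As a share of all counts, the members held narrow ranges in both lines. The nuclear members together took 3.96% to 4.77% of a library in YUMM2.1 (median 4.45%, 45 samples) and 2.68% to 3.09% in CT26 (median 2.90%, 45 samples). The ranges of the 2 lines did not overlap, with YUMM2.1 the higher. The mitochondrial members took 4.39% to 7.07% in YUMM2.1 (median 5.32%) and 4.84% to 6.67% in CT26 (median 5.55%), and here the lines overlapped. The mitochondrial share differed between shallow and deep libraries. Its median was 5.83% in the 11 YUMM2.1 libraries under 1000000 counts and 4.95% in the 12 over 2000000, and in CT26 it was 6.18% in 11 and 5.01% in 3. Most of the shallow libraries of both lines were from IFNγ groups, so a split by depth does not separate depth from treatment. The part of depth in the results on single mitochondrial genes was not tested.

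**Figure D1:**
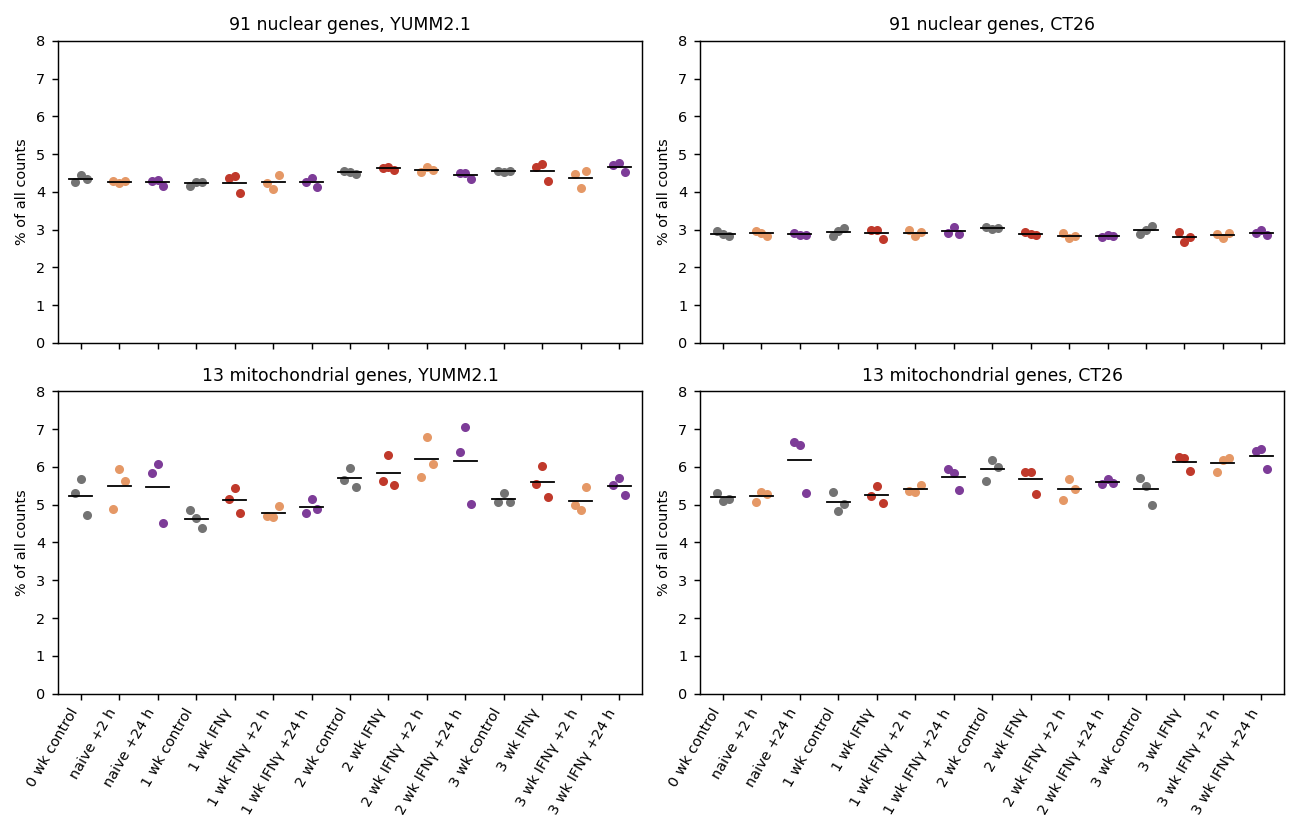
Percent of each library's counts (vertical axes) taken by the nuclear and by the mitochondrial members in every group of both lines, with 1 point per sample. The nuclear share sits between 3.96% and 4.77% in YUMM2.1 and between 2.68% and 3.09% in CT26, and the mitochondrial share spreads more, up to 7.07%.

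Each line was fitted as a whole with edgeR's quasi-likelihood test, with adjustment by Benjamini-Hochberg over all its tested genes (9589 in YUMM2.1, with 90 nuclear members, and 8516 in CT26, with 87) and a call at an adjusted p under 0.05. Values are counts scaled to 1000000 per library (CPM) on each line's own scale. The assay counts 3′ ends of transcripts, so levels are compared between samples and not between genes. All 13 mitochondrial members were tested in both lines. Of the nuclear members, Cox6a2 was too low to test in either line, and Atp5s, Cox7a1 and Sdhaf1 in CT26.

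Calls on the members were concentrated in CT26 after 3 weeks of IFNγ. In YUMM2.1, 0 nuclear members were called in the 11 comparisons of IFNγ or rechallenge by edgeR, and 0 by DESeq2. From 1 to 12 members had an unadjusted p under 0.05, and medians ran from −0.11 to 0.03 (log2). In simulated counts, the YUMM2.1 test at 3 weeks found 15.6% of changes of 0.5 (log2) in genes above the median level. Changes of that size could thus be missed. Of all genes, 0.240% and 0.886% were called in naive cells at 2 h and 24 h, 0.730%, 1.12% and 0.970% after 1, 2 and 3 weeks, 0.615%, 0.428% and 1.08% at the 2 h rechallenge after these times, and 1.42%, 0.615% and 0% at the 24 h rechallenge. In CT26, 12 nuclear members were called in at least 1 of the 11 comparisons, and 1 of them, Ndufa4, in 5. In the other 6 CT26 comparisons 0 nuclear members were called, with 0 to 6 at an unadjusted p under 0.05, where 0.235% (naive 2 h), 0.728% (1 week), 0.376%, 0.305% and 0.0117% (2 h rechallenge after 1, 2 and 3 weeks) and 0% (24 h rechallenge after 3 weeks) of all genes were called. DESeq2 called 1 member in 1 of those 6, Ndufa4 after 1 week. Among the mitochondrial members, edgeR called 1 in each line in those comparisons, mt-Nd4l in YUMM2.1 and mt-Co1 in CT26. Several of these comparisons share samples: the naive groups share the 0-week control, and each IFNγ group is compared with its control and is the reference of its own rechallenges.

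**Figure D2:**
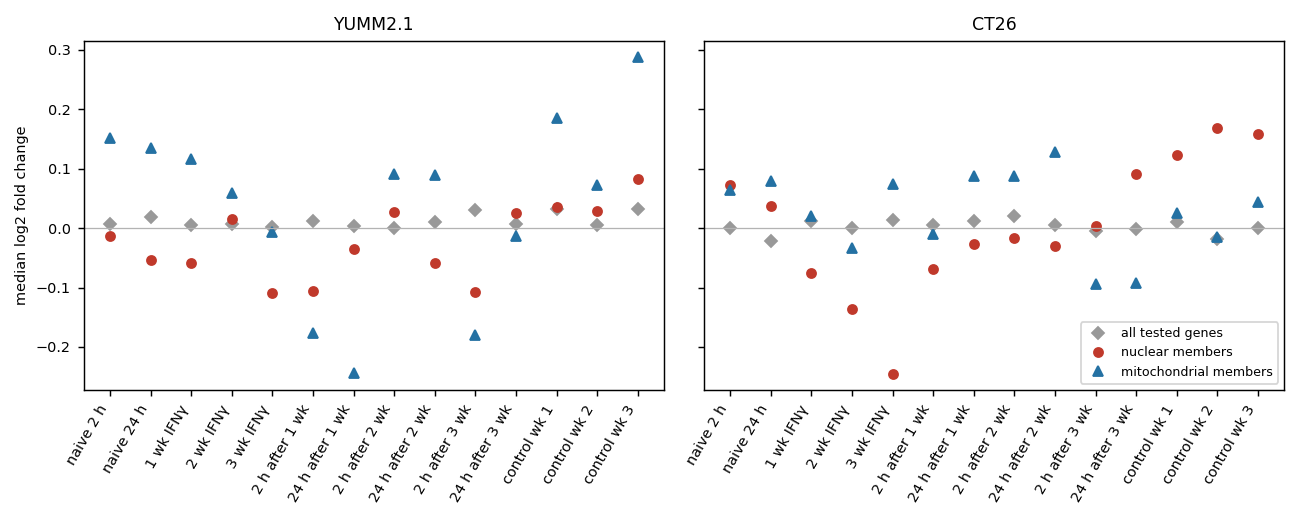
Median log2 fold change (vertical axis) over the nuclear members, over the mitochondrial members and over all tested genes, for each comparison of both lines (horizontal axis). The nuclear median of CT26 after 3 weeks of IFNγ, −0.25, lies farthest below that of all genes, 0.01, while the YUMM2.1 nuclear medians lie between −0.11 and 0.08.

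After 3 weeks of IFNγ in CT26, 10 of the 87 tested nuclear members were lower than in the 3-week control and 0 were higher. Among all genes 7.28% were called, 3.84% lower and 3.44% higher. The nuclear median was −0.25 against 0.01 for all tested genes, and 77 of the 87 had a negative log2 fold change. Those called were 1 member of complex I, 3 of complex III, 1 of complex IV and 5 of complex V, and 37 nuclear members had an unadjusted p under 0.05. By complex, the median was −0.18 over the 36 members of complex I, −0.29 over the 4 of complex II, −0.27 over the 8 of complex III, −0.29 over the 12 tested of complex IV, −0.28 over the 16 tested of complex V and −0.24 over the 11 tested assembly factors. Every tested member of complexes II, III and IV had a negative value.

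The count of 10 lower members depended on single libraries. It was 2, 1 and 8 without replicate 1, 2 or 3 of every group, 1 in a fit of those 2 groups alone, 2 with library totals as the scaling and 16 without the shallow libraries, while the nuclear median minus that of all genes ran from −0.34 to −0.16 under the alternatives tried on that control. Without replicate 1 the calls on Ndufa4 and Atp5j2 were kept, without replicate 2 that on Ndufa4, and without replicate 3 those on Atp5h, Atp5j2 and Uqcr11 were lost. The control libraries held 1318011, 1409042 and 2183005 counts and the IFNγ libraries 1080409, 773942 and 295157. Mitochondrial ribosomal RNA took 0.774% ± 0.033 (SD, n = 3) of the counts in the control libraries and 1.16% ± 0.345 in the IFNγ libraries, with no overlap between them (highest control 0.796%, lowest IFNγ 0.807%). Both depth and this share thus differed between the groups, and their part in the result was not tested. Of the 2 colon and 3 fibroblast markers tested here, 0 were called by edgeR and 0 by DESeq2, with 1 and 1 at an unadjusted p under 0.05. In the other CT26 comparisons of IFNγ, Krt20 was called in those of the 2 h rechallenge after 2 weeks (0.74) and 3 weeks (1.24). In bulk cultures, fewer cells that express a gene and less of its RNA per cell cannot be told apart.

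**Figure D3:**
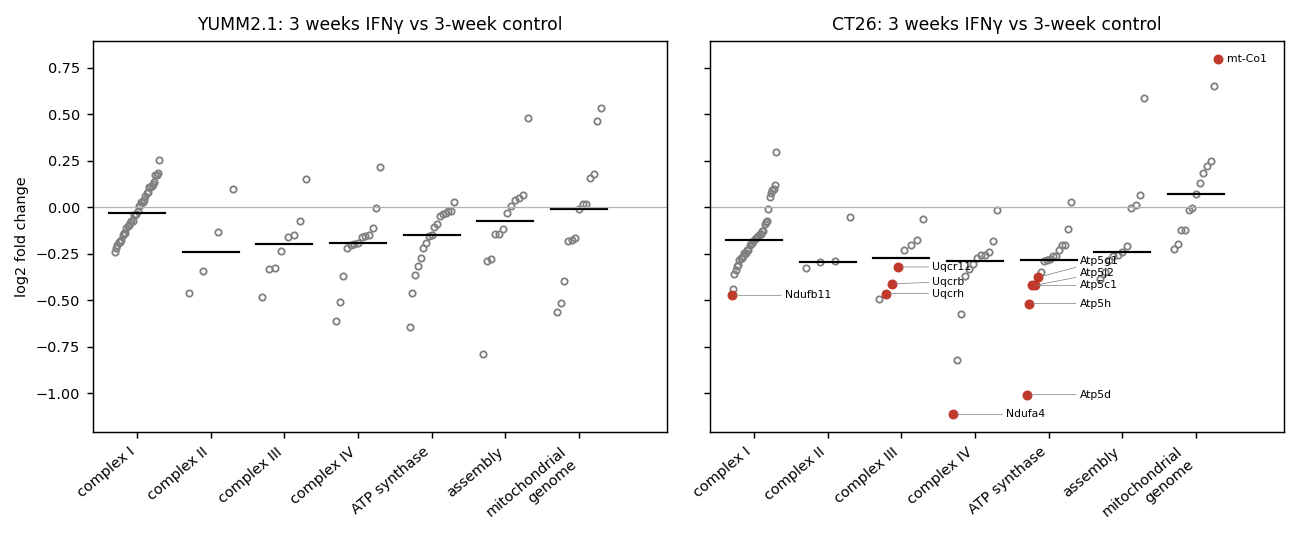
Log2 fold change of every tested member after 3 weeks of IFNγ against the 3-week control, by complex, in YUMM2.1 and CT26, with called members filled. In CT26 most nuclear members lie below 0 and Ndufa4, at −1.11, lies lowest, whereas in YUMM2.1 no member was called.

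Ndufa4, a small protein first counted to complex I and now placed in complex IV, fell most of the 10 nuclear members called lower in CT26 at 3 weeks. In CT26 it was at 1269.9, 1280.4 and 1209.8 CPM in the 3-week control and at 595, 537 and 609.8 CPM after 3 weeks of IFNγ. The 3 treated samples lay close together and far below the 3 controls. The log2 fold change was −1.11 (SE 0.11, n = 3 and 3, adjusted p = 6.12e-11, edgeR's quasi-likelihood test). It stayed past the threshold in 11 of 11 alternatives, with log2 fold changes from −1.26 to −0.92. Over the line, Ndufa4 had a median of 844 CPM in the 11 libraries under 1000000 counts and 1209.8 CPM in the 3 over 2000000. Most of those 11 were IFNγ libraries, so this split does not separate depth from treatment. Without the libraries under 25% of the median total the 3-week call was kept.

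Ndufa4 in CT26 was also lower after 24 h and after 2 weeks of IFNγ. It was at 1469, 1332 and 1350.0 CPM in the 0-week control, at 1472, 1297 and 1333 CPM after 2 h in naive cells and 1028, 943 and 927 CPM after 24 h. The 2 h samples overlapped the control (log2 fold change −0.02, adjusted p = 1), and the 24 h samples were all below it (−0.52, SE 0.10, adjusted p = 8.57e-04, edgeR). Without replicate 1 the 24 h call was lost, with an adjusted p of 0.103. The control level itself stayed between 1209.8 and 1469 CPM over the 4 weeks sampled, and Ndufa4 was not called between control weeks (log2 fold changes 0.02, −0.04 and −0.14).

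In cells kept in IFNγ for 1 week, Ndufa4 was at 1020.3, 1207 and 965 CPM against 1426, 1354 and 1441 CPM in the 1-week control. The groups did not overlap, but the difference missed the threshold (−0.40, SE 0.10, adjusted p = 0.0535, edgeR), and it passed with DESeq2 (0.00543). After 2 weeks it was at 1052, 1028 and 954 CPM against 1269, 1402 and 1359 CPM, again with no overlap. That difference was past the threshold (−0.41, SE 0.10, adjusted p = 0.0204, edgeR), and it was lost without any 1 of the replicates and with no filter on low counts.

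Ndufa4 was lower still after fresh IFNγ for 24 h in CT26 cells that had been in IFNγ for 1 or 2 weeks. After 1 week it was at 724, 755 and 625 CPM (log2 fold change −0.61, SE 0.11, against the 1-week IFNγ group, adjusted p = 2.24e-04, edgeR). After 2 weeks it was at 604, 688 and 629.7 CPM (−0.66, SE 0.10, adjusted p = 5.46e-05, edgeR). Both rechallenged groups lay below every sample of their reference, and the call after 2 weeks was lost without replicate 1 (adjusted p = 0.135). After 3 weeks the rechallenged samples were at 722, 723 and 575 CPM, a range that overlaps the unrechallenged one (0.22, SE 0.11, adjusted p = 0.934), and in that comparison 0 of all genes were called. Rechallenge for 2 h left values of −0.16, −0.20 and 0.16 after 1, 2 and 3 weeks, with adjusted p from 0.699 to 0.853. Whether the response to the 24 h rechallenge differed between weeks was not tested.

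**Figure D4:**
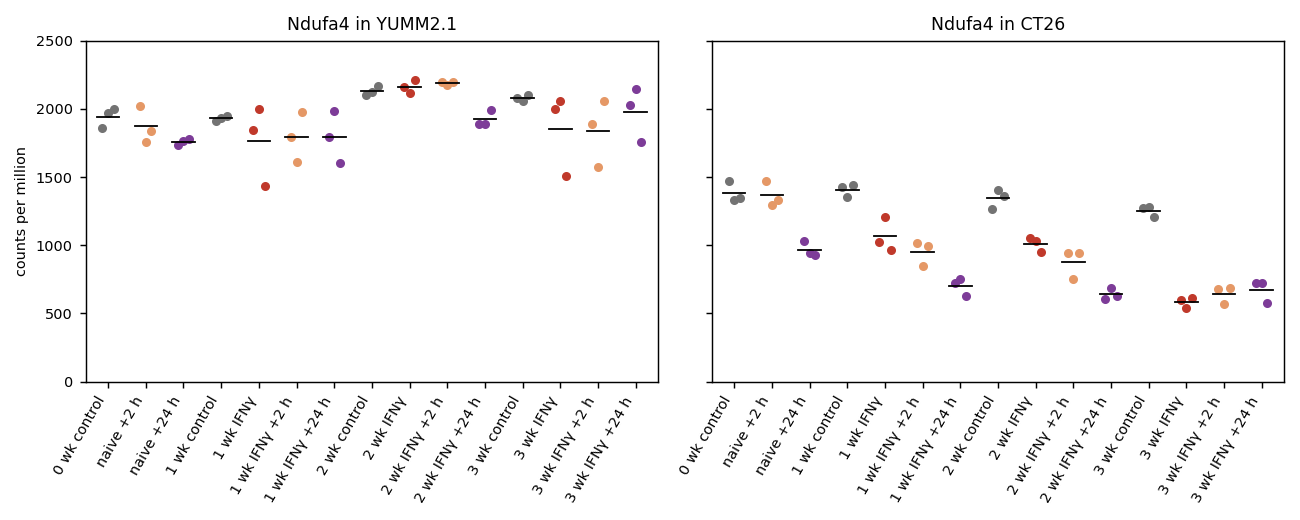
Ndufa4 in CPM (vertical axis, from 0) in every sample of the 15 groups of each line, with the group mean as a bar. The CT26 control samples lie between 1209.8 and 1472 together with the naive 2 h samples, and the lowest group, 3 weeks of IFNγ, lies between 537 and 609.8, while all YUMM2.1 samples lie between 1437 and 2212.

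In YUMM2.1, Ndufa4 was not called in any of the 14 comparisons. The group means ran from 1759.8 to 2189 CPM. At 3 weeks it was at 2081, 2058 and 2102 CPM in the control and at 1998, 2059 and 1506 CPM with IFNγ, and the groups overlapped (−0.16, SE 0.11, adjusted p = 0.662). The lowest value, 1506, came from the shallowest library of the line. In a joint fit of both lines the effect of 3 weeks of IFNγ on Ndufa4 differed between them by 0.88 (SE 0.17, YUMM2.1 minus CT26, adjusted p = 0.00327, edgeR), where 0.106% of all genes were called. That call was lost without replicate 1 (adjusted p = 0.551) and without replicate 2 (0.341). The difference after 24 h in naive cells was 0.35 and was not called (adjusted p = 0.590, with 0.0870% of all genes called).

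ATP synthase had the most calls in CT26 at 3 weeks, with 5 of 16 tested members lower. Atp5c1, the gamma subunit of the central rotor, was at 551, 586 and 590.3 CPM in the control and 443, 402 and 451 CPM with IFNγ. The groups did not overlap (−0.42, SE 0.09, adjusted p = 0.00291, edgeR). Atp5h, subunit d of the peripheral stalk, went from 317, 337 and 508 CPM to 288, 237 and 298 CPM, with no overlap, though the nearest samples of the groups were close (−0.52, SE 0.15, adjusted p = 0.0213, edgeR).

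Atp5d, the delta subunit of the rotor, was at 255, 225 and 431 CPM in the control and 148, 106 and 239 CPM with IFNγ. These groups overlapped, and replicate 3 was the highest in each (−1.01, SE 0.28, adjusted p = 0.0175, edgeR). Its median was 149 CPM in the 11 CT26 libraries under 1000000 counts, mostly from IFNγ groups, and 431 CPM in the 3 over 2000000. Within the 3-week IFNγ group, however, the shallowest library, replicate 3, held the highest value. This split does not separate depth from treatment, and the part of depth in this call was not tested. Atp5j2, the membrane subunit f, and Atp5g1, one of the genes for the c subunit of the proton-driven ring, were named after their values were seen. Atp5j2 was at 733, 751 and 874 CPM against 652, 482 and 639.7 CPM with IFNγ (−0.42, adjusted p = 0.00891, edgeR), and Atp5g1 at 1938, 1896 and 1821 CPM against 1494, 1368 and 1498 CPM (−0.38, adjusted p = 0.0146, edgeR). Neither overlapped its control. Of 11 alternatives, the call held in 8 for Atp5c1, 5 for Atp5h and 6 each for Atp5d, Atp5j2 and Atp5g1.

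Complex III had 3 of 8 members lower at 3 weeks in CT26. Uqcrh, the hinge protein that binds near cytochrome c1, was at 299, 292 and 334 CPM in the control and 234, 178 and 278 CPM with IFNγ (−0.46, SE 0.13, adjusted p = 0.0192, edgeR). Uqcrb and Uqcr11, small subunits of the same complex, were named after their values were seen. Uqcrb was at 586, 556 and 639 CPM against 465, 346 and 553 CPM with IFNγ (−0.41, adjusted p = 0.0245), and Uqcr11, whose start is printed above, at 627, 574 and 626 CPM against 533, 444 and 484 CPM (−0.32, adjusted p = 0.0480). In all 3 genes every treated sample was below every control sample. Of 11 alternatives, the call held in 6 for Uqcrh, 6 for Uqcrb and 2 for Uqcr11.

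Of the 36 complex I members 1 was lower, Ndufb11, an accessory subunit of the membrane arm. It was at 391, 364 and 347 CPM in the control and 302, 230.2 and 255 CPM with IFNγ, without overlap (−0.47, SE 0.11, adjusted p = 0.00546, edgeR). The Ndufb11 call held in 6 of 11 alternatives. In complex IV, apart from Ndufa4, no member was called. Cox8a, its smallest subunit, missed the threshold (−0.82, SE 0.27, adjusted p = 0.0512), with 279.9, 297 and 569.9 CPM in the control and 197, 163 and 338 CPM with IFNγ, which overlapped. Like that of Atp5d, its median differed in the split by depth, at 175 CPM in the shallow and 452 CPM in the deep CT26 libraries. Its highest value in the IFNγ group, 338 CPM, was likewise from the shallowest library of that group.

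The mitochondrial members had a median of 0.07 in CT26 at 3 weeks. Of 13, 1 was called, a share like the 7.28% of all genes called there. The called member was mt-Co1, which encodes the catalytic subunit of complex IV. It was higher, at 1593, 1604 and 1450.0 CPM in the control and 2704, 3243 and 2114 CPM with IFNγ, with no overlap (0.80, SE 0.15, adjusted p = 2.12e-04, edgeR). Its median was 2636 CPM in the 11 CT26 libraries under 1000000 counts and 1786 CPM in the 3 over 2000000. Depth differed in that direction between the 3-week groups. Most of those 11 libraries were from IFNγ groups, and the shallowest of the 3-week IFNγ libraries held their lowest value, 2114 CPM. Mitochondrial ribosomal RNA also took a larger share of these IFNγ libraries, as given above, and the part of either was not tested. Of neighbouring mitochondrial genes, mt-Atp6 and mt-Atp8 share 43 bases, mt-Nd5 and mt-Nd6 14, mt-Nd4 and mt-Nd4l 7 and mt-Atp6 and mt-Co3 1, so reads there may be split between them.

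At 2 weeks of IFNγ in CT26, 3 nuclear members were lower, where 1.62% of all genes were called and 0.728% were lower, and 70 of 87 had a negative value (median −0.14 against 0 for all genes). Atp5g3, another gene for the c subunit, was at 1067, 995 and 1042 CPM in the control and 699.7, 673 and 737 CPM with IFNγ. The groups were well apart (−0.56, SE 0.11, adjusted p = 0.00112, edgeR). Ndufb6, an accessory subunit of the membrane arm of complex I, went from 136, 125 and 151 CPM to 106, 94.1 and 83.0 CPM, without overlap (−0.55, SE 0.14, adjusted p = 0.0198, edgeR). Without replicate 1 the Atp5g3 call was lost (adjusted p = 0.155), and the Ndufb6 call was lost without any 1 replicate. The third was Ndufa4. At 24 h in naive CT26 cells, where 2.04% of all genes were called, Ndufa4 was the 1 nuclear member called, and after 24 h of rechallenge it was the 1 nuclear member called after 1 week (1.32% of all genes) and after 2 weeks (0.658%).

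Members chosen to stand for each complex did not pass the threshold of edgeR in any of the 11 comparisons of IFNγ in either line, apart from mt-Co1. Over those comparisons the other 8 had 6 tests in CT26 and 5 in YUMM2.1 at an unadjusted p under 0.05, and DESeq2 called 2 in CT26 and 0 in YUMM2.1. In CT26 at 3 weeks, Ndufs1, the iron-sulphur subunit at the core of complex I, had a log2 fold change of −0.01, and Sdha, the flavoprotein of complex II, of −0.30. Uqcrc1, a core protein of complex III, had −0.21, Cox4i1, the usual isoform of subunit IV of complex IV, −0.18, and Atp5a1, the alpha subunit of the ATP synthase, −0.28 (adjusted p = 0.0837, edgeR, the lowest of the 5). Of the mitochondrial ones, mt-Nd1 (complex I) had −0.20, mt-Cytb (complex III) −0.01 and mt-Atp6 (complex V) 0.13. Over all 11 comparisons the values of these 8 genes lay between −0.47 and 0.47 in CT26 and between −0.43 and 0.23 in YUMM2.1.

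Complex IV has subunits with alternative isoforms, several of which had few counts. Cox7a1 had at most 12 counts in a CT26 library and was tested in YUMM2.1 only, where it was not called. Cox6a2, known from heart and skeletal muscle, had at most 3 counts in a YUMM2.1 library and 12 in a CT26 library, and Cox4i2, Cox6b2, Cox8b, Cox8c and Ndufa4l2 had too few counts to enter the list, whereas Cox4i1, Cox6a1, Cox6b1, Cox7a2, Cox7a2l and Cox8a were tested in both lines. Across the IFNγ comparisons none of those 6 was called in either line by edgeR, with adjusted p from 0.0512 upward, or by DESeq2, with 9 tests in CT26 and 6 in YUMM2.1 at an unadjusted p under 0.05.

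In YUMM2.1, 1 mitochondrial member was called in the comparisons of IFNγ, mt-Nd4l, which encodes a small core subunit of complex I. It was at 121, 93.5 and 353 CPM after 1 week of IFNγ and at 54.0, 89.0 and 67.1 CPM after the 24 h rechallenge. The reference group was wide, with 1 library, of 484092 counts, far above the others, and the groups did not overlap (−1.26, SE 0.32, adjusted p = 0.0222, edgeR; 1.42% of all genes were called). The call was lost without replicate 1, without replicate 3 and in a fit of those 2 groups alone.

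Some members also differed between untreated cells of different weeks. Time in culture cannot be told apart there from other differences between the samples of each week, such as depth. In CT26, mt-Co3, which encodes a core subunit of complex IV, was at 9134, 9361 and 9162 CPM at week 0, at 13031, 12661 and 12983 CPM at week 2 and at 13420.0, 12181 and 13569 CPM at week 3. The later controls lay above all samples of week 0, by 0.48 (adjusted p = 0.00778, edgeR, 0.247% of all genes called) and 0.50 (adjusted p = 0.00239, 0.904% called). Ndufa7, an accessory subunit of complex I, was higher at week 2, at 409, 505 and 429.8 CPM against 324, 308 and 267 CPM (0.58, adjusted p = 0.0280, edgeR). The mt-Co3 calls were kept without replicate 2 and lost without replicate 1 or 3 (adjusted p up to 0.435), and the Ndufa7 call was lost without any 1 replicate.

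At week 3 in CT26, Ndufb11 was higher than at week 0, at 391, 364 and 347 CPM against 305, 258 and 252 CPM (0.44, adjusted p = 0.0331, edgeR). The control of week 3 that Ndufb11 was compared with above was thus itself raised, and the 3-week IFNγ samples, at 230.2 to 302 CPM, overlapped the 0-week control. Atp5g3 went the other way, from 1027, 1025 and 1016 CPM to 737, 705 and 847 CPM (−0.42, adjusted p = 0.0448, edgeR). Both calls were lost without any 1 of the replicates. The nuclear medians of the CT26 controls were 0.12, 0.17 and 0.16 above week 0 at weeks 1, 2 and 3. Set against the 0-week control, in an alternative chosen after seeing the data, 4 nuclear members were lower after 3 weeks of IFNγ and the nuclear median was −0.11. Of the 10 reported above 2 were among them, Ndufa4 and Atp5c1, and the other 2 were not among the 10.

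No nuclear member was called at week 1 in the CT26 controls (0.0117% of all genes) or at week 2 in the YUMM2.1 controls (0.0209%), by edgeR or DESeq2, with 4 and 2 at an unadjusted p under 0.05. In the YUMM2.1 controls, Cox8a was at 516, 359.8 and 568 CPM at week 0 and 804, 819 and 1172 CPM at week 1 (0.94, SE 0.20, adjusted p = 0.0389, edgeR, where 0.0730% of all genes were called). Atp5g3 was at 483, 425 and 527 CPM at week 0 and 634, 675 and 699.7 CPM at week 3 (0.48, SE 0.12, adjusted p = 0.0316, edgeR, 0.511% called). Neither pair of groups overlapped, and both calls were lost without any 1 of the replicates. The libraries of week 0 held 812316 to 1867497 counts, those of week 1 2309928 to 3161276 and those of week 3 2354083 to 3047691. Over all YUMM2.1 samples the median of Cox8a was 441 CPM in the 11 libraries under 1000000 counts and 705 CPM in the 12 over 2000000, and that of Atp5g3 442 and 542 CPM, so depth ran with both calls, and its part was not tested. Atp5g3 was thus higher at week 3 than at week 0 in untreated YUMM2.1 and lower in untreated CT26, a difference between lines that was not tested.

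Between the untreated lines, complex I had the largest share of members called. In a joint fit of both lines (10339 genes, 90 nuclear members), the 0-week controls of YUMM2.1 had 53 nuclear members higher and 10 lower than CT26, while 46.0% of all genes were called, 25.9% higher and 20.1% lower. The nuclear median was 0.53 against 0.08 for all tested genes. Of 36 complex I members 31 were higher and 2 lower (median 0.76), of 4 of complex II 2 and 0, of 8 of complex III 3 and 1, of 13 of complex IV 3 and 2 (median 0.01), of 17 of complex V 8 and 4, and of 12 assembly factors 6 and 1. With library totals as the scaling, the median of all genes was 0.24 and the nuclear median 0.70. Each line is 1 culture history from its own tissue, so line, tissue and culture cannot be told apart. The paper implanted the lines in matched hosts of different mouse strains, so strain cannot be told apart from line either.

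**Figure D5:**
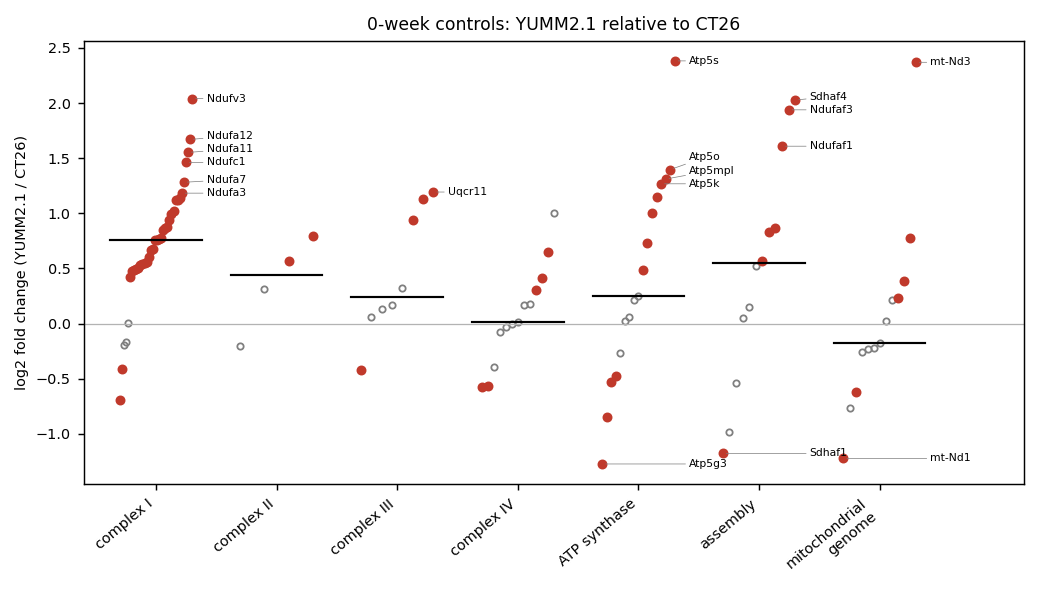
Log2 difference between untreated YUMM2.1 and CT26 at week 0 for each tested member, by complex, with called members filled and values above 0 higher in YUMM2.1. Complex I lies mostly above 0, with 31 of 36 members called higher, while complex IV is spread around 0.

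Among nuclear members, the 6 called with the largest differences in favour of YUMM2.1 were 2 accessory subunits of complex I, 3 assembly factors and a protein bound to the ATP synthase. On the joint CPM scale, Ndufv3, an accessory subunit near the NADH site of complex I, was at 403, 419 and 395 CPM in YUMM2.1 and 91.9, 105 and 98.4 CPM in CT26 (2.04, SE 0.14, adjusted p = 3.01e-22, edgeR). Ndufa12, another accessory subunit, was at 886, 869 and 885 CPM against 290.2, 292 and 249 CPM (1.67, SE 0.13, adjusted p = 9.44e-19, edgeR). Neither overlapped between the lines.

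Sdhaf4, an assembly factor of complex II, was at 62.2, 64.1 and 59.6 CPM against 16.7, 14.1 and 14.7 CPM (2.03). The complex I assembly factors Ndufaf3 (1.94) and Ndufaf1 (1.61) were also higher in YUMM2.1. Atp5s, the protein bound to the ATP synthase, had the largest value of these (2.38, SE 0.50), at 12.4, 13.5 and 18.0 CPM against 3.04, 2.68 and 2.56 CPM, with at most 4 counts in a CT26 library.

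Lower in YUMM2.1 were genes of the c ring, of complex IV and of complex I. Atp5g3 was at 463, 395 and 512 CPM in YUMM2.1 and 1111, 1108 and 1103 CPM in CT26 (−1.27, SE 0.13, adjusted p = 2.81e-14, edgeR). Atp5g2, which encodes the same c subunit, was also lower (−0.85), while Atp5g1 did not pass the threshold (0.02, adjusted p = 0.906), so the lines differed in 2 of the 3 genes for this protein. Cox4i1 was at 887, 889 and 909 CPM against 1425, 1279 and 1284 CPM (−0.57, SE 0.10, adjusted p = 3.02e-06, edgeR), and Cox6c, another subunit of complex IV (−0.57), and Ndufa8, an accessory subunit of complex I (−0.69), were lower too. Sdhaf1, a complex II assembly factor, was called lower (−1.18, adjusted p = 0.0407) on 12 counts or fewer and passed in 3 of 9 alternatives. Of the members chosen for each complex, Ndufs1 (0.50) and Sdha (0.79) were higher, and Uqcrc1 (0.13) and Atp5a1 (0.06) did not pass.

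Of the 13 mitochondrial members, 4 were higher and 2 lower in YUMM2.1, a share like the 46.0% of all genes called here, with a median of −0.18. mt-Nd1 was at 4237, 3015 and 4297 CPM in YUMM2.1 and 8972, 8816 and 9174 CPM in CT26 (−1.22, SE 0.13, adjusted p = 1.80e-12, edgeR). mt-Nd3, another core subunit of complex I, was at 83.5, 43.9 and 73.9 CPM against 12.2, 17.4 and 10.2 CPM (2.37, SE 0.51, adjusted p = 6.23e-05, edgeR). Both genes lie on the same strand of the mitochondrial genome and belong to the same complex, and the lines did not overlap in either.

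mt-Co1 (0.78), mt-Nd4 (0.38) and mt-Nd2 (0.23) were also higher in YUMM2.1 and mt-Co3 (−0.62) lower. The calls on mt-Nd4 and mt-Nd2 held in 7 and 3 of 9 alternatives. mt-Cytb (0.22) and mt-Atp6 (−0.18) did not pass the threshold.

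Lists of genes that work with the members were read out of the same fits. Of 31 tested genes for the assembly of complexes III, IV and V and for cytochrome c, 3 were lower after 3 weeks of IFNγ in CT26 and 0 higher (median −0.25), where 3.84% of all genes were lower. These were Atpaf2 (−0.61, adjusted p = 0.0197, edgeR), which helps to build the catalytic head of the ATP synthase, and Cox14 (−0.44, adjusted p = 0.0310) and Cox20 (−0.74, adjusted p = 0.00531), which help to build complex IV. Cox14 and Cox20 were also lower at 2 weeks (−0.71 and −0.76), where 0.728% of all genes were lower. Cycs, the cytochrome c of most tissues, was higher after 24 h in naive CT26 cells (0.36, adjusted p = 0.0358, edgeR, with 2.04% of all genes called). Of 17 tested genes for mitochondrial DNA and RNA, 7 regulators of mitochondrial biogenesis and 16 genes of the citric acid cycle and pyruvate dehydrogenase, 0 were called in CT26 at 3 weeks by edgeR and 0 by DESeq2, with 5, 1 and 2 at an unadjusted p under 0.05. In the 11 comparisons of IFNγ in YUMM2.1, 0 genes of these 4 lists were called by either tool.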

How the data were processed

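RNA from 90 cultures was measured by 3′ digital gene expression. The deposited table holds raw counts per gene, which the authors made before any normalisation, and the submitters' processing notes name Salmon 0.13.1 and mm10. The counting strand and read filters are not given in the sources used here. The study left out outlier samples that it does not name, most of them from CT26, and all 90 were kept here. How far the calls in CT26 rest on those samples was not tested. Genes were taken by symbol from the annotation.

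The members and lists were chosen with earlier results of these data known. Counts were fitted per line with edgeR 4.0.16 (R 4.3.3), with filterByExpr, TMM scaling, 1 coefficient per group and a quasi-likelihood F test, with Benjamini-Hochberg adjustment over all tested genes of the line (threshold 0.05). The untreated lines, and differences between lines, used a joint fit of all 90 samples. CPM are on TMM-scaled totals. SE are those of the log2 fold change, derived from its size and the F statistic. Depth of 274719 to 3161276 counts limits low genes most. The replicate check found 0 identical pairs among 90. Named are, in each comparison, called members (up to 6 each way by size), fixed members of each complex, isoform pairs and the 6 largest differences each way between the lines.

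DESeq2 1.42.0, library totals, no filter, leaving out mitochondrial genes, only the compared groups, a replicate block, leaving out each replicate, and leaving out libraries under 25% of the median total were tried. Same-numbered samples did not deviate together (0 of 28 comparisons with every correlation over 0.1), so no block was used. The fit was tested on simulated data for the comparison at 3 weeks. It recovered 10% of genes changed by 0.5 (log2) in each line. Of genes changed by 1 it recovered 42% in YUMM2.1 and 28% in CT26. Among genes above the median level these shares were 15.6% and 19.6% at 0.5, and 68.5% and 65.1% at 1. The changed genes were drawn from all tested genes and not matched to the levels of the members, so these shares are not those of the members. A count of 0 members called still does not show that the members were unchanged.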

Additional observations from a re-analysis of the deposited data

Results flagged for a closer look

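The effect of 3 weeks of IFNγ on Ndufa4 differed between the lines by 0.88 on the log2 scale (YUMM2.1 minus CT26, SE 0.17, adjusted p = 0.00327 by edgeR's quasi-likelihood test on the interaction). Every CT26 sample after 3 weeks of IFNγ without a rechallenge, at 537 to 609.8 CPM, was below every 3-week CT26 control, at 1209.8 to 1280.4 CPM. The YUMM2.1 groups of the same week overlapped. Ndufa4 was singled out because a test of the difference itself was past the threshold, and the call was lost without replicate 1 or replicate 2. The median of this difference over all tested genes was −0.10.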

How the results depend on the processing

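Of the counts of members called, 479 of the values under an alternative were within 1.5 times the reported count and 104 were not, and of the members called singly 341 kept their call, 102 lost it and 0 changed sign. In YUMM2.1 the nuclear count, 0 in each comparison of IFNγ, became 3 at 1 week, 4 at 3 weeks and 1 at 24 h after 1 week with no filter on low counts, 3 at 3 weeks in a fit of only the compared groups, and 0 to 1 at 1 week and 0 to 3 at 2 h after 3 weeks when a replicate was left out. The mitochondrial count in YUMM2.1 with no filter was 1 at naive 24 h, 1 week, 2 weeks and 24 h after 3 weeks, and 2 at 3 weeks, 2 h after 1 week, 24 h after 1 week and 2 h after 3 weeks; with only the compared groups it was 1 at 2 weeks, 2 at 3 weeks and 0 at 24 h after 1 week, and without a replicate 0 to 1 at 24 h after 1 week and at 2 h after 3 weeks. Between YUMM2.1 controls at week 1 the nuclear count was 2 with library totals, 2 with no filter, 3 with only the compared groups and 0 to 1 without a replicate, and the mitochondrial count 1 with DESeq2, 3 with no filter and 2 with only the compared groups. At week 3 the nuclear count was 2 with library totals, 2 with no filter and 0 without any replicate, and the mitochondrial count 1 with DESeq2, 2 with library totals, 1 with no filter and 1 with only the compared groups.

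In naive CT26 at 24 h the nuclear count of 1 was 3 with DESeq2, 2 with library totals, 4 with no filter, 2 with only the compared groups, 2 without libraries under 25% of the median total and 0 to 6 without a replicate, and the mitochondrial count was 2, 2 and 1 with DESeq2, library totals and no filter and 0 to 3 without a replicate. At 1 week the nuclear count of 0 was 1 with DESeq2, library totals, no filter and mitochondrial genes left out, and 0 to 1 without a replicate; at 2 weeks the count of 3 was 1 with no filter and 0 to 1 without a replicate. At 3 weeks the nuclear count of 10 was 2 with library totals, 1 with only the compared groups, 16 without the shallow libraries, 1 to 8 without a replicate and 4 against the 0-week control (2 of them among the 10), an alternative chosen after seeing the data, and the mitochondrial count of 1 was 2 with library totals, without the shallow libraries and against the 0-week control. In CT26 rechallenges the nuclear count was 2 with no filter at 2 h after 2 weeks and 0 to 2 without a replicate at 24 h after 2 weeks, and the mitochondrial count was 1 with no filter at 2 h after 1, 2 and 3 weeks and 24 h after 1 week, 1 with library totals at 24 h after 1 week, 1 with DESeq2 and without the shallow libraries at 2 h after 2 weeks, 0 to 1 without a replicate there and 0 to 2 at 24 h after 2 weeks. Between CT26 controls the nuclear count was 1 at week 1 with no filter; at week 2 it was 2 with DESeq2, 0 with library totals, 4 with only the compared groups and 0 without any replicate, and at week 3 it was 4 with library totals, 1 with mitochondrial genes left out, 0 with no filter, 4 with only the compared groups and 0 without any replicate. The mitochondrial count was 3 at week 2 with only the compared groups, 2 at week 3 without the shallow libraries and 0 to 1 without a replicate at both. The number of members whose 3-week effect differed between lines was 0 to 1 without a replicate.

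A replicate block did not follow from the design. With it the nuclear count was 1 in YUMM2.1 at 1 week and 1 at 3 weeks, 2 between YUMM2.1 controls at week 1 and 1 in CT26 at 1 week (Ndufa4), and the count at 3 weeks in CT26 was 11; it moved no other count by over 1.5 times. Low depth limits genes such as Atp5s and Sdhaf1, and the cause of the moves above was not tested.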

Other observations

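AA467197, the mouse gene for NMES1, a protein related in sequence to NDUFA4, is no member by name and was looked at after the values of Ndufa4 were seen. In CT26 it was at 5.62, 6.20 and 8.25 CPM in the 0-week control and 29.4, 18.5 and 17.7 CPM after 24 h of IFNγ in naive cells, with no overlap (log2 fold change 1.62, SE 0.37, adjusted p = 0.00460 by edgeR's quasi-likelihood test, n = 3 and 3). It was also higher after a 24 h rechallenge in cells kept in IFNγ for 1 week (1.86, adjusted p = 5.48e-04) or 2 weeks (1.40, adjusted p = 0.00599), and it did not pass the threshold after 3 weeks (0.04, adjusted p = 1). These are the comparisons with fresh IFNγ for 24 h in which Ndufa4 was lower. After 3 weeks of IFNγ without a rechallenge, where Ndufa4 fell most, AA467197 did not pass the threshold (0.70, SE 0.34, adjusted p = 0.223). In YUMM2.1 it was not called in any comparison by edgeR, with log2 fold changes in the 11 comparisons of IFNγ or rechallenge from −0.30 to 1.08.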
